A study of Homo sapiens with 6 samples.

Results

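The genes described here are QPRT (ENSG00000103485) and 6 further enzymes that make, recycle or divert the coenzyme NAD: KYNU (ENSG00000115919), NAPRT (ENSG00000147813), NMNAT1 (ENSG00000173614), NADSYN1 (ENSG00000172890), NAMPT (ENSG00000105835) and NNMT (ENSG00000166741). They were chosen by Ensembl gene ID from a given list, and all 7 were found among the 62492 features of the count table. Of the 7, 6 had counts in the ribosome profiling libraries and passed the filter on low counts, and 11653 features passed it in all. The list was drawn up with results of this comparison known, so the differences between groups given for these genes are descriptions and carry no p-value.

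NAD carries electrons in energy metabolism and is also consumed as a substrate by sirtuins and poly(ADP-ribose) polymerases, so cells must keep replacing it. It can be built from tryptophan through the kynurenine route, in which KYNU acts upstream and QPRT turns quinolinic acid into nicotinic acid mononucleotide. It can also be built from nicotinic acid through NAPRT, which gives the same mononucleotide, or recycled from nicotinamide through NAMPT. NMNAT1 adds the adenylyl group in the nucleus, NADSYN1 makes the last amidation step for both routes that pass through nicotinic acid mononucleotide, and NNMT methylates nicotinamide and so takes it out of recycling.

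Ribosome profiling counts the short mRNA fragments that ribosomes shield from nuclease, so the count of a gene depends on the amount of its mRNA and on how densely ribosomes sit on it. All 6 libraries were made from WPMY-1, an established human cell line of stromal myofibroblasts from the prostate. The 3 control libraries carried a control hairpin (shcontrol, TRMT61A wildtype) and the 3 knockdown libraries a hairpin against TRMT61A (sh61A), the subunit that carries the catalytic site of the tRNA 1-methyladenosine (m1A) methyltransferase. No further treatment, time point or clone is named in the labels, and the purpose stated for the series is to study TRMT61A in the regulation of translation. Whether libraries of the same group were grown as separate cultures is not said in the labels, so their spread may be technical. The control libraries held 6771455 to 8008896 counts and the knockdown libraries 12704354 to 17752247. The level of TRMT61A and the markers of stromal cells could not be looked up here, because the table gives Ensembl IDs without names, so the direction of each difference rests on the column names. Those names, vec and sh61A, were not checked against any independent measure, and every direction given below, that of QPRT first of all, is provisional until they are.

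QPRT is the gene on which the results turn, and the RefSeq sequence (GRCh38.p14) of the 250 bases before its transcription start, chr16:29678758-29679007 on the plus strand, is shown beside that of NADSYN1, chr11:71452953-71453202 on the plus strand. NADSYN1 serves a later step than QPRT, after NMNAT1, and is shown because its footprints did not separate the groups. This was also so for NAPRT, NMNAT1 and NAMPT, so nothing is read from the choice of NADSYN1. Capitals mark each CG dinucleotide.
QPRT: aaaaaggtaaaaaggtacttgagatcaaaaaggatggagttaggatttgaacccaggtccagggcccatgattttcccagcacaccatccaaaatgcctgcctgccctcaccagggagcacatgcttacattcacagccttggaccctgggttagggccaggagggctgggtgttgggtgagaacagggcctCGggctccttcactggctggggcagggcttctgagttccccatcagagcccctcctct
NADSYN1: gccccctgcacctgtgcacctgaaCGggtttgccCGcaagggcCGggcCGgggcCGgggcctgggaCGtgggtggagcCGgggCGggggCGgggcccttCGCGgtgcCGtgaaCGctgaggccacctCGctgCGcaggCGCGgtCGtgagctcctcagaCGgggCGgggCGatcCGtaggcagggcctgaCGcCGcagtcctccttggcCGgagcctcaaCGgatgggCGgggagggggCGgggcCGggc

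The QPRT window held 1 CG dinucleotide and 55.6% G plus C. The NADSYN1 window held 29 and 77.6%. Over 35116 RefSeq promoter windows of the same length the medians were 11 CG dinucleotides and 58.0% G plus C, and 93.9% of the windows held at least 1 CG. On either strand, GGGCGG was found 5 times in the NADSYN1 window and 0 times in the QPRT window, and it was present in 42.6% of all windows. TATAAA was found in neither window and in 10.7% of all windows. RefSeq also lists a second QPRT start, whose window held 2 CG dinucleotides and 66.4% G plus C. The KYNU window held 1 CG dinucleotide, as many as that of QPRT, the NMNAT1 window 21 and the NAMPT window 34. QPRT thus shared a low CG count with KYNU, which had no footprint counts. NMNAT1, NADSYN1 and NAMPT held more. No window was compared for NAPRT or NNMT, and no tie between CG count and footprints was tested. These matches describe the sequence only, and footprint counts do not measure promoter use.

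QPRT footprints were more abundant in every knockdown library than in any control library. The raw counts were 100, 89 and 103 in control libraries 1 to 3 and 688, 796 and 645 in knockdown libraries 1 to 3. After scaling to CPM (counts divided by the library size in units of 1e+06, with the trimmed mean of M values, TMM, setting the effective library size), these became 13.6, 10.9 and 11.7 CPM in control and 45.2, 67.5 and 52.3 CPM in knockdown. The lowest knockdown library was 3.34 times the highest control library. The group means were 12.1 ± 1.4 CPM and 55.0 ± 11.4 CPM (SD, n = 3 each).

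The fitted log2 fold change of QPRT, knockdown over control, was 2.19 ± 0.28 (SE), or 4.56-fold. If the vec and sh61A names were exchanged in this table, its size would stand and its direction would turn. The fold is one of footprints, and mRNA was not analysed here, so it is not a fold of translation. Ordered by this value, QPRT stood at place 153 of the 11653 tested features and at place 24 of the 5908 with a mean of at least 10 CPM. The control libraries differed from each other by little more than counting error, with a coefficient of variation of 11.3% where counting alone would give about 10.2%. The knockdown libraries varied more than their counts would allow, by 20.7% against about 3.77%, and knockdown library 2 was the highest. Without knockdown library 2 the log2 fold change of QPRT was 2.02 ± 0.29 (SE), and leaving out each library in turn gave 2.02 to 2.31.

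**Figure D1:**
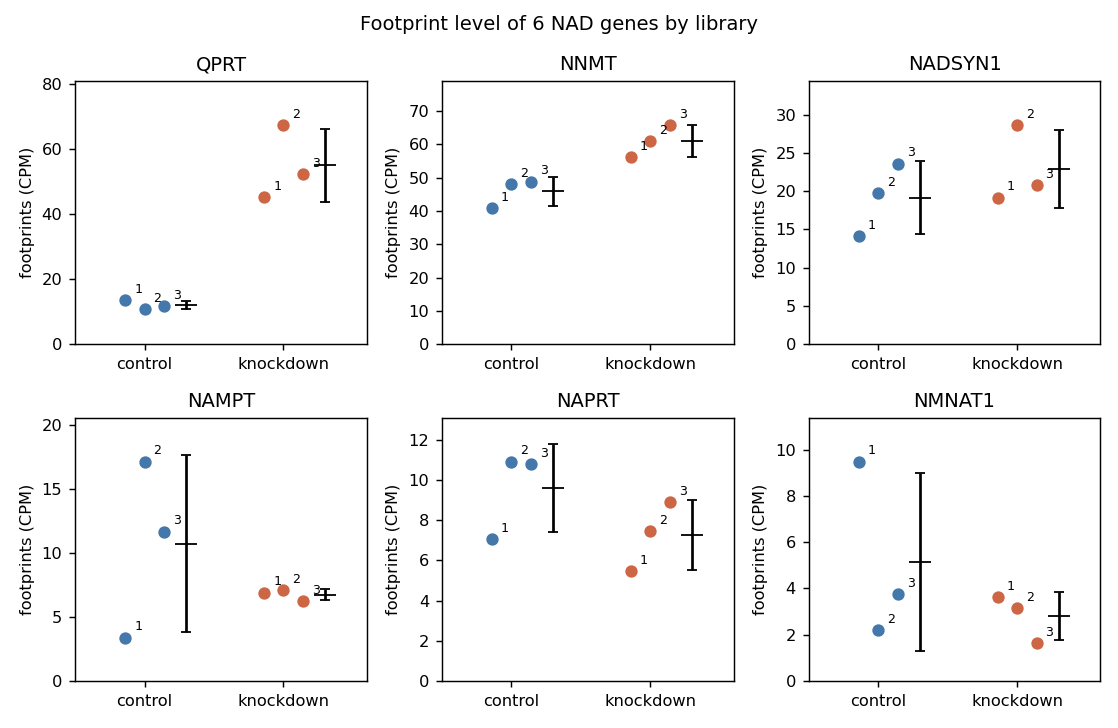
Footprints in TMM-scaled CPM for the 6 NAD genes with counts, 1 panel per gene with its own linear axis from 0. Each point is a library, numbered by its replicate, blue for control and orange for knockdown, and the black bars give the mean and SD of 3 libraries. QPRT lies between 10.9 and 13.6 CPM in control and between 45.2 and 67.5 CPM in knockdown, while NADSYN1, NAMPT, NAPRT and NMNAT1 overlap between groups.

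KYNU, the enzyme upstream of QPRT that cleaves kynurenine and 3-hydroxykynurenine, had 0 counts in all 6 libraries. Taking 3 counts as the most that a count of 0 allows, the upper limit was 0.407 CPM in control library 1, where it was highest, and 0.197 CPM in knockdown library 1, where it was lowest. KYNU footprints were therefore not detectable at this depth in either group, and no fold is given. Within the kynurenine route, QPRT was thus measured well above the limit of detection in both groups and KYNU in neither.

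NAPRT, which feeds nicotinic acid into the same mononucleotide pool as QPRT, overlapped between the groups, where QPRT did not. Its counts were 52, 89 and 95 in control and 83, 88 and 110 in knockdown, which is 7.05, 10.9 and 10.8 CPM against 5.46, 7.46 and 8.91 CPM. Control library 1 lay below knockdown libraries 2 and 3. The log2 fold change was -0.40 ± 0.46 (SE), smaller than its error.

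The steps that the routes share were also without separation between groups. NMNAT1 had the fewest counts of the 6 detected genes, with 70, 18 and 33 in control and 55, 37 and 20 in knockdown. In scaled values this was 9.49, 2.21 and 3.74 CPM against 3.62, 3.14 and 1.62 CPM. Control library 1 stood above the 5 others, which overlapped. The NMNAT1 log2 fold change of -0.88 ± 0.81 (SE) became -0.10 ± 1.01 (SE) without control library 1, so its size rested on that library.

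NADSYN1, which makes the last amidation step, had 104, 161 and 208 counts in control and 291, 338 and 257 in knockdown. Its scaled values were 14.1, 19.7 and 23.6 CPM against 19.1, 28.6 and 20.8 CPM, and the groups overlapped. The NADSYN1 log2 fold change was 0.25 ± 0.32 (SE) and became -0.07 ± 0.37 (SE) with library size alone as the scale. No direction is therefore given for NADSYN1.

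NAMPT, the rate-limiting enzyme of nicotinamide recycling, varied most within the control group after NMNAT1. It had 25, 140 and 103 counts in control libraries 1 to 3 and 105, 84 and 77 in knockdown libraries 1 to 3. These counts became 3.39, 17.2 and 11.7 CPM in control and 6.90, 7.12 and 6.24 CPM in knockdown. The knockdown values lay close together, inside the span of the control values.

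The coefficient of variation of NAMPT was 64.5% in control, where counting alone would give about 13.8%, and 6.79% in knockdown, where it would give about 10.7%. Its log2 fold change was -0.67 ± 0.56 (SE). Without control library 1 it was -1.10 ± 0.45 (SE), and without control library 2 it was -0.17 ± 0.65 (SE). Control library 1 thus held the lowest NAMPT value and the highest NMNAT1 value of the 6 libraries. Of the other detected genes it also held the lowest NADSYN1 and NNMT values, and its QPRT value was the highest of the control group. The 50 most abundant features took 71.0% of the counts of that library, against 62.7% and 61.8% in the other control libraries and 69.9% to 73.2% in the knockdown libraries. The part of this in the NAD gene values was not tested.

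NNMT, which uses S-adenosylmethionine to methylate nicotinamide, had the most counts of the 7 genes in control. It had 301, 391 and 430 counts in control and 853, 719 and 812 in knockdown, which is 40.8, 47.9 and 48.8 CPM against 56.1, 60.9 and 65.8 CPM. On this scale the groups did not overlap, and the lowest knockdown value was 1.15 times the highest control value. With library size alone as the scale they overlapped, at 37.6, 57.7 and 58.7 CPM in control and 48.1, 54.1 and 63.9 CPM in knockdown. The log2 fold change of NNMT was 0.41 ± 0.22 (SE) with TMM and 0.11 ± 0.28 (SE) with library size alone.

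**Figure D2:**
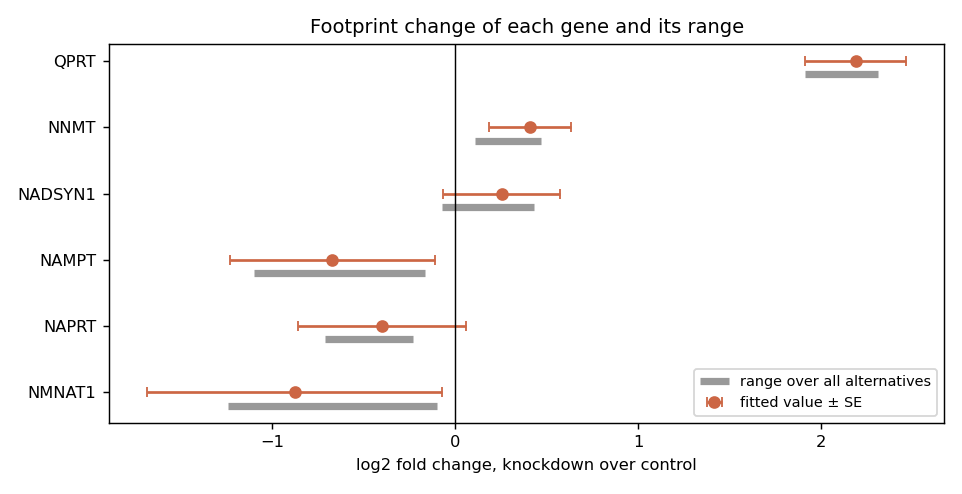
Fitted log2 fold change, knockdown over control, of the 6 tested NAD genes (orange points, with bars of 1 SE), and the span of the same value over all alternative settings and left-out libraries (grey bars). QPRT spans 1.91 to 2.31, NNMT stays above 0 from 0.11 to 0.47, and NADSYN1 crosses 0.

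Set against all features, QPRT was the 1 member of the 6 tested that passed the threshold (edgeR quasi-likelihood test, adjusted p under 0.05), and it was higher in knockdown. The same threshold was passed by 1.48% of the 11653 tested features in that direction, by 1.64% in the other and by 3.12% in either. Because the genes were listed with this comparison known, nothing is read from that count. QPRT passed under each of the 15 alternatives run, and none of the 5 other tested genes passed under any alternative that tested it. These alternatives refit the same libraries, so repeated passing adds no support. In simulated data the test recovered 1.08% of 2-fold changes, so a gene that did not pass is not shown to be unchanged. The median log2 fold change was -0.07 over the 6 tested genes and -0.0047 over all tested features. The groups did not overlap in TMM-scaled CPM for 2 of the 6, QPRT and NNMT, both higher in knockdown, which was also so for 12.2% of all tested features. Over all tested features the knockdown libraries lay wholly below the control libraries in 12.7%, and the groups were apart in either direction in 24.8%.

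**Figure D3:**
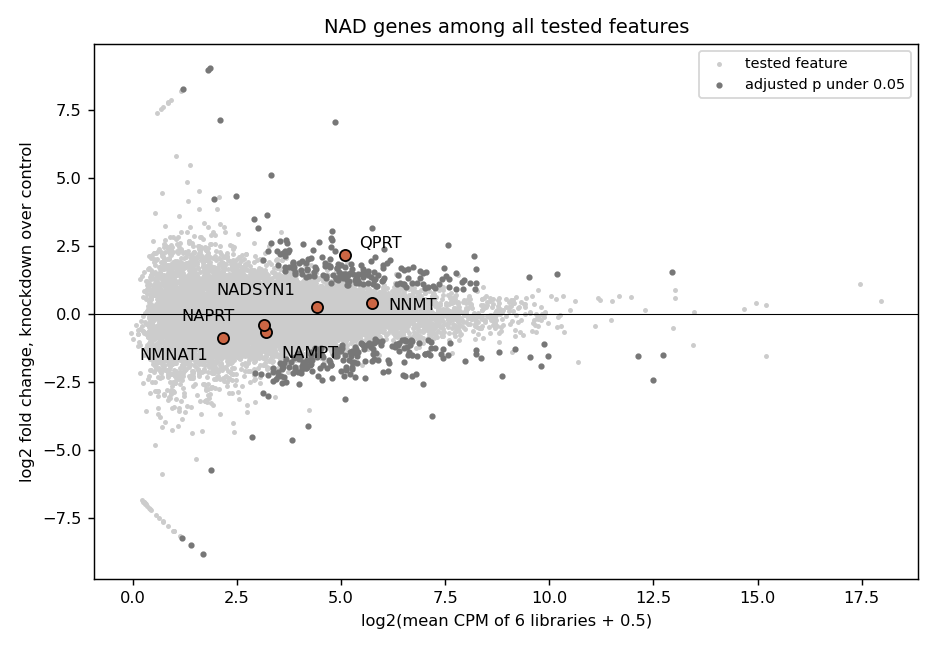
Log2 fold change, knockdown over control, against the log2 of the mean CPM of 6 libraries plus 0.5, for 11653 tested features (light grey), those with an adjusted p under 0.05 (dark grey) and the 6 tested NAD genes (orange). QPRT, at a mean of 33.5 CPM, lies among the dark points above 0, and the other NAD genes lie among the light points.

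Shares within a library do not depend on how libraries are scaled against each other. Of all counts on the 7 genes, QPRT took 15.3%, 10.02% and 10.6% in control libraries 1 to 3 and 33.2%, 38.6% and 33.6% in knockdown libraries 1 to 3. The Wilson 95% intervals, which cover counting error only, reached up to 18.3% in control and down to 31.2% in knockdown. The ratio of QPRT to NNMT counts was 0.332, 0.228 and 0.240 in control and 0.807, 1.11 and 0.794 in knockdown. QPRT thus had fewer counts than NNMT in each control library and in knockdown libraries 1 and 3, and more in knockdown library 2. These are shares of counts, which also grow with the length of a gene. Transcript or coding lengths were not used here, so the genes are not ranked by level.

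With QPRT left out, the summed level of the other genes was 74.9, 98.0 and 98.6 CPM in control and 91.2, 107.3 and 103.4 CPM in knockdown, and the groups overlapped. The mean was 90.5 ± 13.5 CPM in control and 101 ± 8 CPM in knockdown (SD, n = 3 each). With QPRT included, the sums were 88.4, 109 and 110 CPM in control and 136, 175 and 156 CPM in knockdown, with no overlap. Of the remaining counts, NNMT took 54.5%, 48.9% and 49.5% in control and 61.5%, 56.8% and 63.6% in knockdown. NAPRT took 9.42%, 11.1% and 10.9% in control and 5.98%, 6.95% and 8.62% in knockdown. The ranges of these 2 genes did not overlap, although the NAPRT levels in CPM did. The ranges of the 3 other genes with counts overlapped, with NADSYN1 at 18.8% to 23.9% in control and 20.1% to 26.7% in knockdown. NAMPT took 4.53% to 17.5% in control and 6.03% to 7.57% in knockdown, and NMNAT1 took 2.25% to 12.7% and 1.57% to 3.97%. Shares that sum to 100% are tied to each other, so a larger share of NNMT lowers the sum of the others, and nothing particular to NNMT or NAPRT is read from them.

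**Figure D4:**
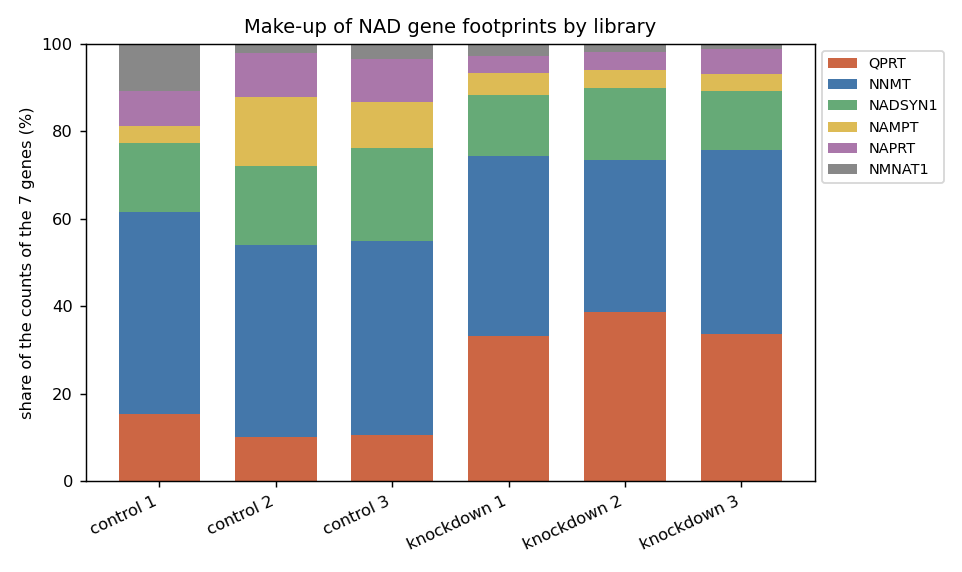
Share of the counts of the 7 NAD genes taken by each gene, as stacked bars summing to 100% in each of 6 libraries (KYNU, at 0 counts, has no band). The QPRT band is 10.02% to 15.3% high in control and 33.2% to 38.6% in knockdown, and the NMNAT1 band is widest in control library 1, at 10.7%.

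The features with a profile most like that of QPRT were sought among 5905 others with a mean of at least 10 CPM. Likeness was the root mean square difference over the 6 libraries of log2(CPM + 0.5), each feature centred on its control mean. The nearest was ENSG00000171307.19_5, at a distance of 0.18. It had 37, 28 and 43 counts in control and 292, 242 and 246 in knockdown. The next was ENSG00000089597.18_6, at 0.23, with 793, 880 and 965 counts in control and 7961, 5596 and 5312 in knockdown. Their log2 fold changes, 2.16 ± 0.38 and 2.14 ± 0.21 (SE), lie near that of QPRT because they were chosen for it. Among the NAD genes the nearest to QPRT was NNMT, at 1.24, and the farthest was NMNAT1, at 2.03.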

How the data were processed

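Footprints were measured in 6 WPMY-1 libraries, 3 control and 3 with a TRMT61A hairpin. The table deposited by the authors holds unnormalised read counts for each Ensembl ID. The submitters' processing notes name fastp, Bowtie 1.3.1 and hg38. For the counting tool, the annotation, the use of strand and the removal of ribosomal RNA reads, the setting is not given in the sources used here. Many of the IDs, these 7 among them, carry a suffix that GENCODE uses for annotation carried to GRCh37, so coordinates are printed only for the RefSeq promoter windows, on GRCh38.p14, and not for the counted features. RNase I digestion and gel selection of short fragments are described, per the labels' protocols. No molecular identifier is described, so PCR copies may be counted more than once, and counting intervals and limits cover counting error only. Control columns, named for a vector, were matched through assay and replicate number. The table has 6 further per-sample columns, named RNA_vec and RNA_sh61A, which match no sample described here and were not used. Changes in mRNA and in translation are therefore not separated, and the vec and sh61A names of the 2 assays were not checked against each other.

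Features were filtered with filterByExpr, which left 11653 with 99.8% of all counts, scaled by TMM and tested with edgeR 4.0.16 (glmQLFit and glmQLFTest, two-sided, all 6 libraries, Benjamini-Hochberg over all tested features, threshold 0.05) in R 4.3.3. The scripts were tested on simulated data, with the dispersion of each feature taken from this fit. The test recovered 2 of 186 simulated 2-fold changes, 96 of 187 4-fold changes and 148 of 191 8-fold changes. In the same runs it also called 1, 5 and 21 features that were simulated without a change. The SE is the log2 fold change divided by the square root of F. Alternatives were DESeq2 1.42.0, limma 3.58.1 with voom, other scaling factors and count filters, removal of the 50 most abundant features, a block for the replicate number, and fits that each left out 1 library.

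Members and lists were chosen with earlier results of these data known. Named features are the 7 genes and the 2 nearest profiles to QPRT. A list of further NAD genes and lists of cell type markers were foreseen by symbol and were not analysed here, since no table pairs the IDs with symbols. Gene names of the 7 come with their given IDs. Promoter windows for QPRT, KYNU, NMNAT1, NADSYN1 and NAMPT were matched by symbol (RefSeq, GRCh38.p14). No window was used for NAPRT, whose chromosome was left out when the windows of the 7 genes were listed, or for NNMT, which had none listed. The medians and percentages over all windows were taken without this omission. The NMNAT1 and NAMPT windows precede a transcription start other than the start of the RefSeq gene record.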

Additional observations from a re-analysis of the deposited data

How the results depend on the processing

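The log2 fold change of QPRT was 1.91 with no TMM factors (library size alone), 2.17 with the replicate block, and 2.17 to 2.21 with RLE or upper quartile factors, other count filters, DESeq2, limma voom or removal of the 50 most abundant features. Leaving out 1 library gave 2.02 to 2.31. The number of the 7 genes past the threshold was 1, QPRT, in each of these settings. NAPRT, NMNAT1 and NAMPT were lower and NNMT was higher in knockdown under each alternative that tested them, and NADSYN1 was lower under 1 of 15, library size alone. All alternatives refit the same libraries, so neither a constant sign nor a repeated call adds support for a direction. With a minimum of 10 CPM in 3 libraries, NAPRT, NMNAT1 and NAMPT were not tested. The count of calls over all features was 364 (173 higher, 191 lower). It was 735 without a filter, 602 with at least 10 CPM in 3 libraries, 784 in DESeq2 and 208 with the replicate block, and 47 to 171 with 1 library left out. Library size alone gave 63 higher and 334 lower, and moved the median of all features to -0.30. For each of these shifts the cause was not tested. Same-numbered libraries deviated together at r = -0.0039, -0.017 and 0.050 across features, so the numbers share no visible pairing. NMNAT1, NAMPT and NAPRT had 18 to 140 counts in a library, with mean counting errors of about 10.4% to 18.3%, which limits what can be seen in them.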
